A study of Mus musculus with 13 samples.

Results

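Livers of 8-week-old offspring that came from vitrified oocytes were compared with livers of offspring that came from fresh oocytes. A library was included if its labels give liver as the organ, and the oocyte treatment on its label set its group. This gave 3 vitrified and 3 fresh livers, which are 6 of the 13 libraries of the series. The other 7 libraries are kidneys, and they enter only where a liver gene is set against its kidney value. All mice were CD-1 (ICR), an outbred laboratory stock, with no engineered allele named in the labels.

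The vitrified group came from oocytes that were vitrified on a Cryotop carrier, thawed, fertilised in vitro, cultured in KSOM medium, and transferred as cleaved embryos to the oviducts of pseudopregnant females. The fresh group had the same fertilisation, culture and transfer without vitrification, so that both groups carry any effect of those shared steps and differ in the treatment of the oocyte. RNA was taken from a rinsed piece of liver, and the protocol mentions ribosomal RNA depletion as well as mRNA selection. Replicates are described as biological, without sex, litter, day or batch, so p-values cover the spread between these 6 libraries only.

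Vitrification cools an egg cell so fast, and with so much cryoprotectant, that it turns to a glass without ice crystals, and the egg is later warmed and fertilised. The liver is built mostly of hepatocytes, which make plasma proteins, bile acids, cholesterol and urea, burn or store fat, and clear drugs, and whose gene expression differs between male and female mice. Chaperone genes of the heat shock response and immediate early genes such as Egr1 are known for being switched on within minutes to hours of a stress to the tissue.

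The estimated counts of the livers added up to between 18037816 and 19795826 per library. Levels are given as CPM, the estimated count scaled to the same total in every library, and the 3 values of a group are always given in the order of replicates 1, 2 and 3. Liver markers fitted the label, with albumin (Alb) at 42619.5, 93476 and 38752 CPM in the vitrified livers and 50213, 55952 and 147479 CPM in the fresh livers. Levels in a piece of tissue do not tell fewer cells of a type apart from less RNA per cell.

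A pair of livers stood apart from the rest, and where leaving out either moved the log2 fold change of a gene below by over 1.5 times, the value without it follows. In fresh liver 3, the summed level of the Y-linked genes Ddx3y, Uty, Kdm5d and Eif2s3y was 0.778 CPM, while it was 157, 205 and 169 CPM in the vitrified livers and 147 and 163 CPM in fresh livers 1 and 2. Fresh liver 3 also held A1bg, a liver gene known for being higher in female mice, at 3071 CPM and Cyp3a41a, a female-biased cytochrome P450, at 7338 CPM, against at most 1.06 and 6.45 CPM in the other 5 livers. Vitrified liver 3 stood apart in stress genes, with Egr1 at 198 CPM while no other liver had more than 16.1 CPM. It also held the lowest value of 39.1% of all genes tested, against 4.74% to 16.7% for each of the other 5 livers. Vitrified liver 1 had 15.4% of its counts in mitochondrially encoded genes, against 8.26% to 10.1% in the other 5 livers.

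No gene separated the groups after correction for the number of genes tested. Of 12335 genes tested with edgeR's quasi-likelihood test, 0 (0%) had a Benjamini-Hochberg adjusted p under 0.05, and the smallest adjusted p was 0.858, of Tpm3, with 0.990 next. An unadjusted p under 0.05 was found for 390 genes, which is 3.16% of those tested, with 213 (1.73%) higher and 177 (1.43%) lower in vitrified livers. Limma-voom and limma on log2(FPKM + 1) also called 0 genes, and DESeq2, which tested 14692 genes, called 10 (0.0681%). The vitrified and fresh values did not overlap for 935 genes (7.58%), of which 516 (4.18%) were higher and 419 (3.4%) lower in vitrified livers. The median log2 fold change over all genes tested was 0.0085, and 51.2% of genes lay above 0. Fold changes below are log2 of vitrified over fresh with their standard error (SE) from edgeR. The edgeR adjusted p of every liver gene described below other than Tpm3 was 0.990 or more. Single genes are therefore given as values and not as called differences. Counts of members with an unadjusted p under 0.05 are to be read against 3.16% of all genes. Members whose groups do not overlap are to be read against 7.58%.

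Genes with the smallest p in each direction among those with at least 1 CPM on average and no overlap between the groups are described first, 11 of them higher and 12 lower in vitrified livers. Since the rule asks for groups that do not overlap, that property is a description and no finding. Among the 11 higher genes, the largest fold changes belonged to Ntrk2, the receptor of brain-derived neurotrophic factor, and Cyb561, a membrane cytochrome that carries electrons from ascorbate.

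Pkd2 encodes polycystin 2, a cation channel of the primary cilium and the endoplasmic reticulum whose human gene is mutated in polycystic kidney disease. It was found at 10.7, 6.19 and 4.71 CPM in the vitrified livers, against 2.19, 2.77 and 1.97 CPM in the fresh livers. For Pkd2 the log2 fold change was 1.67 (SE 0.35). The vitrified livers spread widely, with vitrified liver 1 highest, and the fresh ones lay close together. DESeq2 gave an adjusted p of 0.0498 for it.

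Ntrk2 had 21.2, 21.9 and 26.4 CPM in the vitrified livers and 7.11, 1.28 and 2.70 CPM in the fresh livers. For Ntrk2 the log2 fold change was 2.68 (SE 0.61, adjusted p = 0.00263 by DESeq2). The 3 vitrified livers were alike, and fresh liver 1 was the fresh one closest to them. Cyb561 had 3.23, 5.57 and 6.83 CPM in the vitrified livers and 1.75, 0.998 and 0.363 CPM in the fresh livers. For Cyb561 the log2 fold change was 2.38 (SE 0.58). Fresh liver 3 was lowest in Cyb561.

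Gsta2, a glutathione transferase that conjugates toxic lipid products and drugs, was at 12.8, 15.3 and 10.2 CPM in the vitrified livers and 7.87, 4.62 and 4.96 CPM in the fresh livers, with a log2 fold change of 1.15 (SE 0.28). It shares 36.0% of its 50-base words with Gsta1. The sum of Gsta1 and Gsta2 was 13.97 ± 1.97 CPM in vitrified livers and 6.18 ± 1.56 CPM in fresh livers (mean ± SD, n = 3 each). Gsta2 made up most of this sum and was picked for groups that do not overlap, so the sum is no separate check. Gsta1 in turn shares 75.7% of its words with Gm3776, which is not in the sum, so the value of Gsta2 is uncertain.

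Replicates lay close together for Gtf2a2, the small subunit of the general transcription factor TFIIA, and for Mgat2, a Golgi enzyme that builds complex N-glycans. Gtf2a2 lay at 31.8, 30.2 and 28.6 CPM in the vitrified livers and 18.7, 18.3 and 17.7 CPM in the fresh livers. For Gtf2a2 the log2 fold change was 0.77 (SE 0.17). Mgat2 lay at 58.7, 55.4 and 61.3 CPM in the vitrified livers and 39.6, 34.1 and 34.7 CPM in the fresh livers. For Mgat2 the log2 fold change was 0.74 (SE 0.19). In both genes the groups were separated by more than the range within either group.

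The other 5 higher genes had log2 fold changes between 0.68 and 1.19. Pspc1, a protein of nuclear paraspeckles, was at 10.6, 10.9 and 8.53 CPM in vitrified livers and 4.27, 6.54 and 4.41 CPM in fresh livers. Micu3, a regulator of calcium uptake into mitochondria, was at 6.36, 4.95 and 5.53 CPM in vitrified livers and 3.17, 2.22 and 2.39 CPM in fresh livers. Rbis, a factor of ribosome assembly, was at 26.8, 26.9 and 21.4 CPM in vitrified livers and 14.00, 17.6 and 16.1 CPM in fresh livers. For these genes, as for Phf11c and for Gsdme, a gasdermin that forms membrane pores when cut by a caspase, the level in each vitrified liver was above that in each fresh liver and below 30 CPM.

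**Figure D1:**
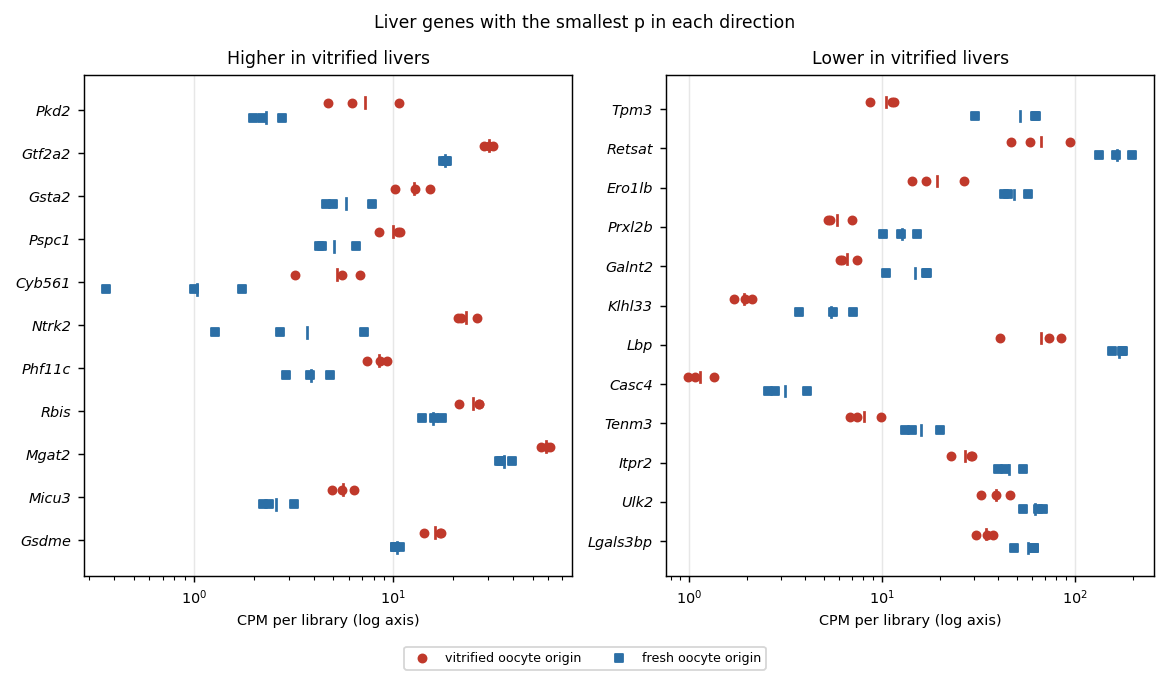
CPM on a log axis in each liver for genes with the smallest p in each direction among genes whose groups do not overlap (left, 11 higher in vitrified livers; right, 12 lower), with vitrified livers as red circles above fresh livers as blue squares and a tick at each group mean. Tpm3 has the widest gap on the right on this axis, between 11.5 CPM in the highest vitrified liver and 30.5 CPM in the lowest fresh liver.

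Tpm3 encodes a tropomyosin, a coiled-coil protein that lies along actin filaments. It had 8.72, 11.3 and 11.5 CPM in the vitrified livers and 30.5, 62.0 and 62.8 CPM in the fresh livers. For Tpm3 the log2 fold change was -2.24 (SE 0.31, adjusted p = 0.858 by edgeR's quasi-likelihood test and 8.61e-07 by DESeq2). The 3 vitrified livers were alike, while fresh liver 1 lay between them and fresh livers 2 and 3.

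The copy Tpm3-rs7 showed the opposite pattern. It was at 33.5, 29.7 and 33.8 CPM in the vitrified livers and 11.2, 0.765 and 0.506 CPM in the fresh livers. For Tpm3-rs7 the log2 fold change was 2.98 (SE 1.21), and of its 50-base words 69.4% also occur in Tpm3, while 23.2% of those of Tpm3 occur in Tpm3-rs7. Tpm3 and Tpm3-rs7 together came to 42.2, 41.0 and 45.3 CPM in the vitrified livers and 41.7, 62.8 and 63.3 CPM in the fresh livers. Fresh liver 1 lay among the vitrified livers in this sum, so the groups overlapped, and the smallest p of the comparison is uncertain as a difference in tropomyosin expression. Without fresh liver 1, the log2 fold change of Tpm3-rs7 was 5.70 and it was the single gene called by edgeR (adjusted p = 0.00847).

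Retsat encodes retinol saturase, an enzyme that acts on vitamin A and is known in liver and fat tissue. Its level was 46.6, 95.0 and 58.9 CPM in the vitrified livers, against 199, 164 and 135 CPM in the fresh livers. For Retsat the log2 fold change was -1.29 (SE 0.27, adjusted p = 0.0449 by DESeq2). No 50-base word of its transcript occurs in another gene. All 3 vitrified livers lay below the lowest fresh liver, with vitrified liver 2 nearest to it.

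Ero1lb, which reoxidises protein disulphide isomerase in the endoplasmic reticulum, was at 26.6, 14.3 and 17.01 CPM in the vitrified livers and 43.0, 57.1 and 45.1 CPM in the fresh livers. For Ero1lb the log2 fold change was -1.28 (SE 0.27). Prxl2b, a peroxiredoxin-like protein that makes prostaglandin F, was at 5.41, 6.96 and 5.22 CPM in the vitrified livers and 12.6, 15.2 and 10.2 CPM in the fresh livers. For Prxl2b the log2 fold change was -1.08 (SE 0.23). Lbp, a plasma protein that binds bacterial lipopolysaccharide, was at 41.0, 73.7 and 85.1 CPM in the vitrified livers and 178, 175 and 156 CPM in the fresh livers. For Lbp the log2 fold change was -1.29 (SE 0.30). The fresh values of Lbp lay close together and the vitrified ones were lowest in vitrified liver 1.

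Galnt2, which starts O-linked glycosylation in the Golgi, was at 6.09, 7.41 and 6.18 CPM in the vitrified livers and 10.5, 17.2 and 16.98 CPM in the fresh livers. Since 88.0% of its 50-base words are shared with the overlapping model Gm20388, its value is uncertain. Itpr2, the inositol trisphosphate receptor that releases calcium in hepatocytes, was at 28.9, 29.5 and 22.8 CPM in the vitrified livers and 53.7, 43.5 and 40.3 CPM in the fresh livers. For Itpr2 the log2 fold change was -0.73 (SE 0.19). Ulk2, a kinase that starts autophagy, was at 39.1, 46.0 and 32.6 CPM in the vitrified livers and 53.9, 64.7 and 68.8 CPM in the fresh livers. For Ulk2 the log2 fold change was -0.64 (SE 0.17). The remaining 4 of the 12 lower genes were Klhl33, Casc4, Tenm3, a teneurin of cell adhesion, and Lgals3bp, a secreted glycoprotein, with log2 fold changes of -1.45, -1.44, -0.95 and -0.68.

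The genes that DESeq2 called included Tpm3, Pkd2, Ntrk2 and Retsat. Cyp4a14 and Cyp4a31, fatty acid hydroxylases that are known targets of the nuclear receptor PPAR alpha, rested mainly on fresh liver 3. Cyp4a14 was at 0.808, 2.06 and 0.259 CPM in the vitrified livers and 17.9, 7.04 and 246 CPM in the fresh livers. For Cyp4a14 the log2 fold change was -6.45 (SE 1.82, adjusted p = 0.0193 by DESeq2), and it was -3.61 without fresh liver 3. Cyp4a31 was at 1.64, 1.302 and 1.41 CPM in the vitrified livers and 5.52, 4.44 and 42.0 CPM in the fresh livers. For Cyp4a31 the log2 fold change was -3.53 (SE 1.01, adjusted p = 0.00317 by DESeq2), and it was -1.73 without fresh liver 3. For both, fresh livers 1 and 2 were also above every vitrified liver. In kidney, Cyp4a14 was at 483 CPM in fresh kidney 3 and 194 CPM in vitrified kidney 4, against at most 17.7 CPM in the others. Those kidneys had the lowest summed Y-linked levels, 1.25 and 0.170 CPM. Cyp4a31 was also highest in fresh kidney 3, at 467 CPM, but vitrified kidney 4, at 214 CPM, lay below fresh kidney 1, at 247 CPM.

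Asic5, an ion channel that responds to bile acids, was at 3.59, 1.80 and 1.40 CPM in the vitrified livers and 6.84, 42.0 and 9.76 CPM in the fresh livers, highest in fresh liver 2. The predicted gene Gm9008 was at 0.812, 0.678 and 0.885 CPM in the vitrified livers and had no count in the fresh livers, and 60.1% of its 50-base words are shared with Rnf26. Amy2a5, the amylase of the exocrine pancreas, had no count in the vitrified livers and 0.142, 2.99 and 0.888 CPM in the fresh livers.

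Gene groups were followed in 48 lists of pathways and cell types, and a list is described by how many of its tested members lay above or below 0 and by its median log2 fold change, beside 51.2% above 0 and a median of 0.0085 over all genes. The lists with medians farthest from 0 were female-biased liver genes, neutrophil markers, immediate early genes, cholangiocyte markers, adipocyte and mesothelial markers, of which 3 were tested, and heat shock genes. In 4 of these 6 lists, all but the neutrophil and the adipocyte one, the median came near 0 when a single library was left out.

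**Figure D2:**
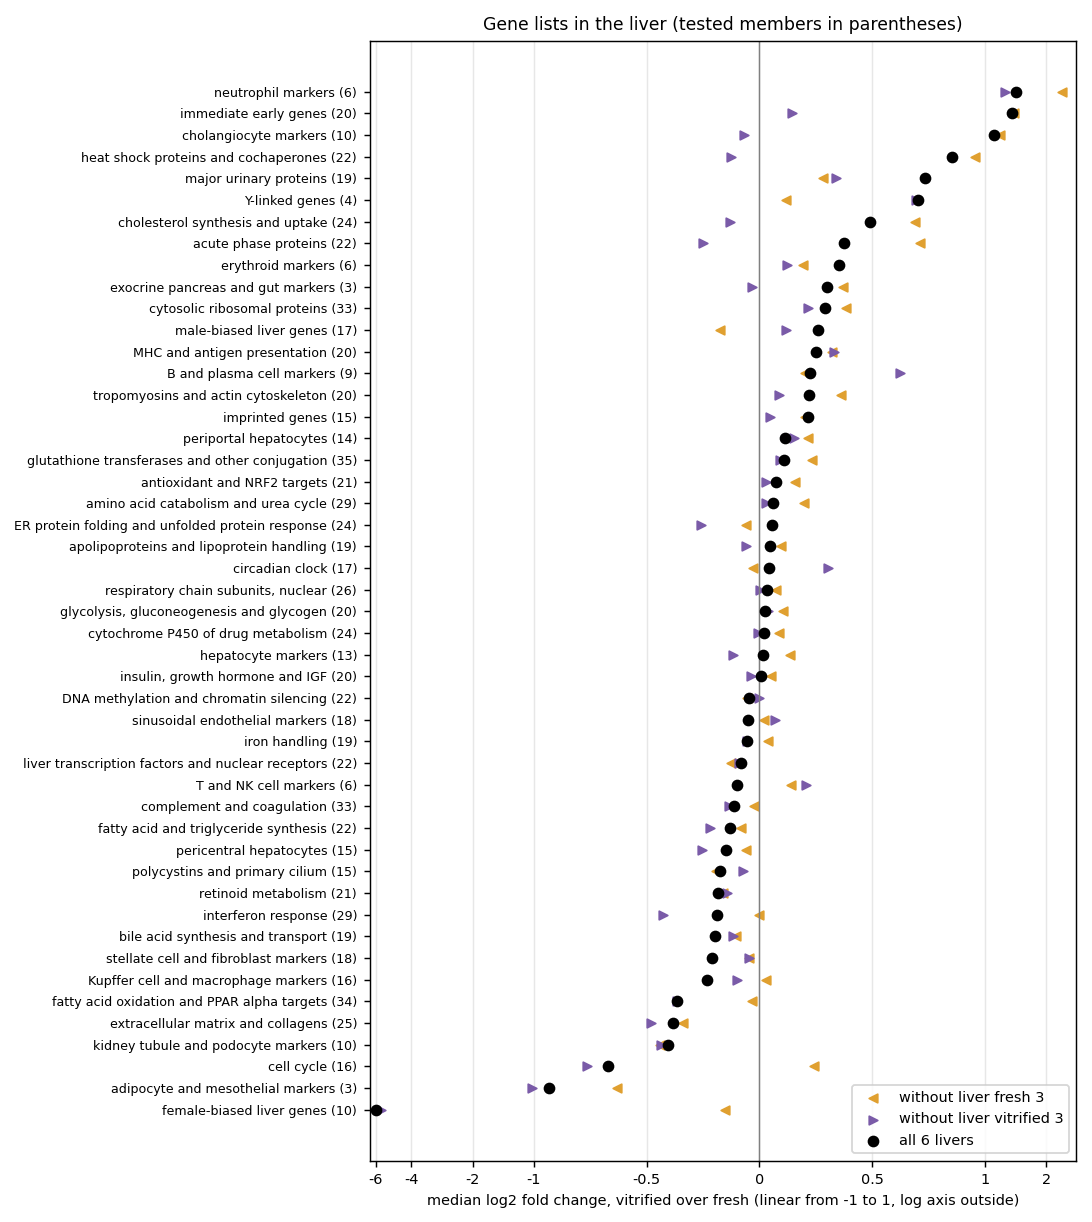
Median log2 fold change (vitrified over fresh) of the tested members of each of 48 gene lists, with all 6 livers (black), without fresh liver 3 (yellow, pointing left) and without vitrified liver 3 (purple, pointing right); the axis is linear between -1 and 1 and logarithmic outside. The heat shock list moves from 0.85 to -0.12 without vitrified liver 3, and the female-biased list from -6.001 to -0.15 without fresh liver 3.

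Heat shock proteins and their cochaperones were higher in 20 of 22 tested members. The median log2 fold change was 0.85, and 0 members had an unadjusted p under 0.05. Vitrified liver 3 held the highest value of 20 of the 22 genes, while it held the highest value of 14.6% of all genes tested. Without vitrified liver 3 the median was -0.12.

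The upstream sequences of the 3 members with the smallest p are shown because heat shock factor, the regulator of these genes, is known to bind inverted repeats of a short triplet. Each line gives the 250 bases before the transcription start in the RefSeq promoter table for build GRCm38.p6, in the direction of the gene, with matches to GAANNTTC or TTCNNGAA in capitals, searched on both strands and with overlapping matches counted.
Hspa1a: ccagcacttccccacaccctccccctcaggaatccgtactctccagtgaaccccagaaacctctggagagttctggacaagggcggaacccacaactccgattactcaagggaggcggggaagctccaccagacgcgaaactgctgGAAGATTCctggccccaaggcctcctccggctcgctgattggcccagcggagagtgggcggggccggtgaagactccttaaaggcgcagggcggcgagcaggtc
Hspa1b: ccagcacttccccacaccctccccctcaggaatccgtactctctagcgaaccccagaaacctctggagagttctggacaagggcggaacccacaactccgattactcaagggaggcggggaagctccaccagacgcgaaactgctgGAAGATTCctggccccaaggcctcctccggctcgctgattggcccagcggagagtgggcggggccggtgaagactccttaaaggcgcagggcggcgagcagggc
Dnajb4: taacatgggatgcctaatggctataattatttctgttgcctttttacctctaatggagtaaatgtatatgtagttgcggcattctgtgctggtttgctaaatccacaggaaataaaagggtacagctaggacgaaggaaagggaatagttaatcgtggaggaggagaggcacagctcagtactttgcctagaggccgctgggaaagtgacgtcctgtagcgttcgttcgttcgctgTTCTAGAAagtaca
These windows are chr17:34972157-34972406 on the minus strand for Hspa1a, chr17:34959239-34959488 on the minus strand for Hspa1b and chr3:152193846-152194095 on the minus strand for Dnajb4.

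The motif begins 104 bases before the start in Hspa1a and Hspa1b, whose windows differ at 3 of 250 bases, and 14 bases before it in Dnajb4. Over the whole window of 250 bases before to 50 after the start, 12 of the 18 listed heat shock genes found in the promoter table held a match (66.7%), and 4587 of all 27025 promoters did.

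Hspa1a, a stress-induced cytosolic chaperone, was at 2.98, 4.42 and 57.3 CPM in the vitrified livers and 2.50, 3.01 and 2.34 CPM in the fresh livers. For Hspa1a the log2 fold change was 3.22 (SE 1.37). Hspa1b, its near copy, was at 5.45, 7.33 and 141 CPM in the vitrified livers and 7.23, 4.41 and 3.67 CPM in the fresh livers. For Hspa1b the log2 fold change was 3.50 (SE 1.54). Vitrified liver 3 alone was high in both, and Hspa1a shares 58.8% of its 50-base words with Hspa1b, so the division between them is uncertain. Without vitrified liver 3 the log2 fold changes were 0.45 for Hspa1a and 0.27 for Hspa1b.

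Dnajb4, a cochaperone of the Hsp70 family, was at 27.0, 33.6 and 75.5 CPM in the vitrified livers and 24.9, 23.3 and 27.3 CPM in the fresh livers. For Dnajb4 the log2 fold change was 0.94 (SE 0.44), and it was 0.21 without vitrified liver 3. Among the abundant members, Hspa8, the constitutive chaperone of the same family, was at 463, 763 and 1995 CPM in the vitrified livers and 588, 488 and 781 CPM in the fresh livers. Hspd1, the mitochondrial chaperonin, was at 314, 445 and 576 CPM in the vitrified livers and 335, 452 and 438 CPM in the fresh livers, where the groups overlapped.

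Immediate early genes lay above 0 in 19 of 20 tested members. The median was 1.35 with all livers and 0.14 without vitrified liver 3. An unadjusted p under 0.05 was found for 3 members that were higher and 1 that was lower. Vitrified liver 3 held the highest value of 19 of the 20 genes. Egr1, a growth- and stress-induced transcription factor, was at 16.1, 5.78 and 198 CPM in the vitrified livers and 6.02, 6.60 and 5.605 CPM in the fresh livers. For Egr1 the log2 fold change was 3.78 (SE 1.51), and it was 0.83 without vitrified liver 3.

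Zfp36, which speeds the decay of inflammatory mRNAs, differed from most of the list in that all 3 vitrified livers lay above the fresh ones. Its level was 78.4, 69.9 and 154 CPM in the vitrified livers and 41.8, 48.6 and 35.4 CPM in the fresh livers. For Zfp36 the log2 fold change was 1.36 (SE 0.38), and it was 0.78 without vitrified liver 3. Klf2, a Krüppel-like factor known from endothelium, was at 7.98, 4.43 and 11.2 CPM in the vitrified livers and 3.17, 2.44 and 4.26 CPM in the fresh livers. For Klf2 the log2 fold change was 1.34 (SE 0.44), and it was 0.88 without vitrified liver 3. Ier5 was at 3.94, 3.40 and 20.01 CPM in the vitrified livers and 2.08, 1.61 and 2.91 CPM in the fresh livers. For Ier5 the log2 fold change was 2.18 (SE 0.83), and it was 0.69 without vitrified liver 3. In Klf2 and Ier5, too, no vitrified liver overlapped with a fresh one. Of the 20 tested members, 4 were higher and 1 lower without overlap, against 4.18% and 3.4% of all genes tested. The lower one had a log2 fold change of -0.89.
The window of Zfp36 is shown because it holds a CArG box, the motif of serum response factor, in capitals at 58 bases before the start (chr7:28379229-28379478 on the minus strand, build GRCm38.p6).
Zfp36: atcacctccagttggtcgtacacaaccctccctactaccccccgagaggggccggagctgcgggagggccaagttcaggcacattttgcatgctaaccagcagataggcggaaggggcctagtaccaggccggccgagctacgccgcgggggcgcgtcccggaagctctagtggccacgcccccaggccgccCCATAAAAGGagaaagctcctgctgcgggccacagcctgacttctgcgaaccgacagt
A CArG box was found in 2 of 19 listed immediate early genes with a promoter entry (10.5%) and in 1.81% of all promoters. The cyclic AMP response element TGACGTCA was found in 2 of the 19 and in 2.03% of all promoters.

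Acute phase proteins, which the liver secretes during inflammation, had 16 of 22 tested members above 0 with a median of 0.38, which was -0.25 without vitrified liver 3. Cxcl1, a chemokine that attracts neutrophils, was at 15.6, 22.7 and 200.0 CPM in the vitrified livers and 3.83, 8.70 and 4.36 CPM in the fresh livers. For Cxcl1 the log2 fold change was 3.99 (SE 1.29). All vitrified livers were above all fresh livers in Cxcl1, and without vitrified liver 3 the log2 fold change was 1.72. Steap4, a metalloreductase, was at 58.4, 146 and 702 CPM in the vitrified livers and 96.7, 93.3 and 88.2 CPM in the fresh livers. For Steap4 the log2 fold change was 1.85 (SE 0.97), and it was 0.072 without vitrified liver 3. Haptoglobin (Hp), at 1602, 2685 and 3487 CPM in the vitrified livers and 2198, 2941 and 1396 CPM in the fresh livers, did not separate the groups. Lbp, described above, is on the same list and lay in the other direction.

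Genes of protein folding in the endoplasmic reticulum had 14 of 24 tested members above 0 and a median of 0.054, which was -0.26 without vitrified liver 3. Beside Ero1lb, Pdia4, a disulphide isomerase, was lower, at 97.0, 114 and 99.3 CPM in the vitrified livers and 169, 132 and 133 CPM in the fresh livers. For Pdia4 the log2 fold change was -0.45 (SE 0.19), and it was -0.30 without fresh liver 1. Hspa5, the chaperone BiP, was at 489, 448 and 1793 CPM in the vitrified livers and 414, 559 and 433 CPM in the fresh livers. For Hspa5 the log2 fold change was 1.09 (SE 0.62), and it turned to -0.039 without vitrified liver 3. Among antioxidant genes, 14 of 21 lay above 0 with a median of 0.075, and Srxn1, which repairs oxidised peroxiredoxins, was at 25.1, 15.3 and 446 CPM in the vitrified livers and 15.04, 24.9 and 16.8 CPM in the fresh livers.

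**Figure D3:**
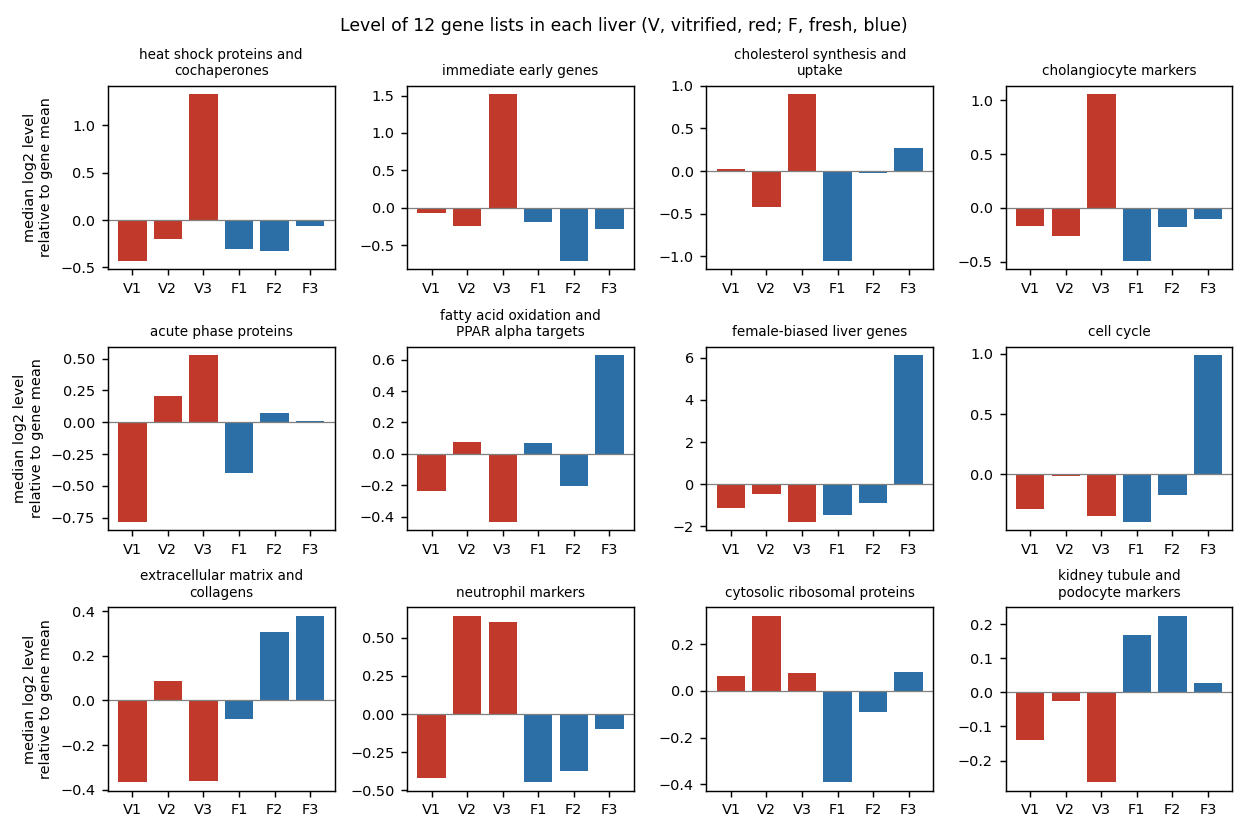
Median over list members of the log2 level relative to the gene's mean, for 12 gene lists (one panel each, every panel on its own vertical scale), with vitrified livers V1 to V3 in red left of fresh livers F1 to F3 in blue. Vitrified liver 3 stands out in the heat shock, immediate early, cholesterol and cholangiocyte panels, and fresh liver 3 in the fatty acid oxidation, female-biased and cell cycle panels.

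Cholesterol synthesis and uptake had 20 of 24 tested members above 0, with a median of 0.49 that was -0.13 without vitrified liver 3. Vitrified liver 3 held the highest value of 19 of the 24 genes, and fresh liver 1 the lowest of 20. Stard4, which carries cholesterol between membranes, was at 157, 235 and 308 CPM in the vitrified livers and 117, 157 and 171 CPM in the fresh livers. For Stard4 the log2 fold change was 0.72 (SE 0.31), it was 0.35 without vitrified liver 3, and the groups overlapped. Msmo1, an enzyme of the pathway, was at 195, 119 and 432 CPM in the vitrified livers and 76.4, 131 and 146 CPM in the fresh livers. For Msmo1 the log2 fold change was 1.20 (SE 0.56), and it was 0.39 without vitrified liver 3.

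Fatty acid oxidation and PPAR alpha targets lay below 0 in 33 of 34 tested members, with a median of -0.36. Fresh liver 3 held the highest value of 29 of the 34 genes, against 16.8% of all genes tested, and without it the median was -0.032. An unadjusted p under 0.05 was found for 3 members, all lower, Cyp4a14, Cyp4a31 and Vnn1, a pantetheinase. Vnn1 was at 1.41, 5.52 and 0.931 CPM in the vitrified livers and 11.6, 4.93 and 43.2 CPM in the fresh livers. For Vnn1 the log2 fold change was -2.96 (SE 1.03), and it was -1.70 without fresh liver 3.

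Fatty acid and triglyceride synthesis had 5 of 22 tested members above 0 and a median of -0.13, and 0 members had an unadjusted p under 0.05. Scd1, the stearoyl desaturase, ranged widely within a group, at 2523, 2832 and 1236 CPM in the vitrified livers and 212, 2983 and 5789 CPM in the fresh livers. Fresh liver 1 held the lowest value of 12 of the 22 genes, against 16.4% of all genes tested.

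Among apolipoproteins and genes of lipoprotein handling, 10 of 19 lay above 0 with a median of 0.048, and single members lay in both directions. Apom, a carrier of sphingosine phosphate on high-density lipoprotein, was at 99.7, 151 and 159 CPM in the vitrified livers and 173, 236 and 242 CPM in the fresh livers. For Apom the log2 fold change was -0.61 (SE 0.26). Mttp, which loads lipid onto apolipoprotein B, was at 153, 231 and 185 CPM in the vitrified livers and 234, 288 and 294 CPM in the fresh livers. For Mttp the log2 fold change was -0.49 (SE 0.21). Apoa1, the main protein of high-density lipoprotein, was at 6482, 6233 and 6157 CPM in the vitrified livers and 4914, 5587 and 2900.3 CPM in the fresh livers. For Apoa1 the log2 fold change was 0.54 (SE 0.29), and it was 0.31 without fresh liver 3. In all 3 genes the groups did not overlap, with Apom and Mttp lower and Apoa1 higher in vitrified livers. Of the 19 tested members, 1 was higher and 3 were lower without overlap, against 4.18% and 3.4% of all genes tested.

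Bile acid genes lay below 0 in 15 of 19 tested members with a median of -0.20, which was -0.10 without fresh liver 3. Abcb11, the bile salt export pump, was at 327, 213 and 370.5 CPM in the vitrified livers and 356, 563 and 753 CPM in the fresh livers. For Abcb11 the log2 fold change was -0.80 (SE 0.36), and it was -0.52 without fresh liver 3. Abcc2, which exports conjugated bilirubin, was at 339, 377 and 257 CPM in the vitrified livers and 483, 489 and 376 CPM in the fresh livers. For Abcc2 the log2 fold change was -0.45 (SE 0.20). Vitrified liver 3 overlapped with fresh liver 1 in Abcb11, and vitrified liver 2 with fresh liver 3 in Abcc2.

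Glycolysis, gluconeogenesis and glycogen genes were evenly divided, with 10 of 20 above 0 and a median of 0.025. G6pc, the enzyme that releases glucose from the liver, was at 74.5, 59.9 and 20.6 CPM in the vitrified livers and 164, 66.6 and 172 CPM in the fresh livers. For G6pc the log2 fold change was -1.39 (SE 0.52), with overlap between the groups. Pck1, the first committed enzyme of gluconeogenesis, was at 814, 1812 and 491 CPM in the vitrified livers and 1315, 295 and 1701 CPM in the fresh livers. Amino acid catabolism and the urea cycle had 17 of 29 members above 0 with a median of 0.060 and 0 members with an unadjusted p under 0.05. Cbs, which starts the conversion of homocysteine to cysteine, was at 209.7, 186 and 212 CPM in the vitrified livers and 229, 278 and 279.5 CPM in the fresh livers. For Cbs the log2 fold change was -0.32 (SE 0.20), the member of this list whose groups did not overlap. Nuclear-encoded respiratory chain subunits had 15 of 26 members above 0 and a median of 0.032.

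In insulin, growth hormone and IGF signalling, 11 of 20 members lay above 0 and the median was 0.0076. Igf1, the growth factor that the liver releases into blood, was at 826, 1233 and 688 CPM in the vitrified livers and 902, 651 and 1196 CPM in the fresh livers, and its ranges overlapped almost wholly. Igfbp1, an insulin-repressed binding protein of IGFs, was at 3.89, 4.38 and 465 CPM in the vitrified livers and 3.12, 3.10 and 8.51 CPM in the fresh livers. For Igfbp1 the log2 fold change was 5.202 (SE 2.29), and it turned to -0.30 without vitrified liver 3.

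Among liver transcription factors and nuclear receptors, 7 of 22 lay above 0, with a median of -0.081. Cebpb, a bZIP factor of the acute phase and of regeneration, was at 76.1, 68.6 and 97.7 CPM in the vitrified livers and 62.9, 46.6 and 42.7 CPM in the fresh livers. For Cebpb the log2 fold change was 0.73 (SE 0.27), without overlap, and it was 0.47 without vitrified liver 3. Prox1, a homeobox factor of hepatocyte identity, was at 76.2, 98.8 and 32.9 CPM in the vitrified livers and 99.2, 97.2 and 118 CPM in the fresh livers. For Prox1 the log2 fold change was -0.60 (SE 0.31), and it was -0.31 without vitrified liver 3, the lowest library. The clock gene Per2 was at 41.2, 49.6 and 36.4 CPM in the vitrified livers and 34.3, 32.5 and 17.5 CPM in the fresh livers. For Per2 the log2 fold change was 0.62 (SE 0.26), and it was 0.37 without fresh liver 3. Nr1d1, the clock repressor REV-ERB alpha, was at 70.5, 45.8 and 22.5 CPM in the vitrified livers and 73.5, 83.2 and 69.8 CPM in the fresh livers. For Nr1d1 the log2 fold change was -0.69 (SE 0.34), and it was -0.41 without vitrified liver 3. The clock list as a whole had 9 of 17 members above 0 and a median of 0.042, and the labels give no time of day for the dissection.

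Imprinted genes, whose expression from 1 parental copy is set by methylation laid down in egg and sperm, were measured in 15 tested members, of which 10 lay above 0 with a median of 0.21 that was 0.048 without vitrified liver 3 and 0.034 without fresh liver 1. Peg3, a paternally expressed zinc finger gene, was at 10.4, 10.1 and 6.93 CPM in the vitrified livers and 27.7, 11.3 and 11.9 CPM in the fresh livers. For Peg3 the log2 fold change was -0.88 (SE 0.38), and it was -0.30 without fresh liver 1. Plagl1, also paternally expressed, was at 3.18, 2.27 and 3.88 CPM in the vitrified livers and 2.24, 1.497 and 1.97 CPM in the fresh livers. For Plagl1 the log2 fold change was 0.77 (SE 0.38), and it was 0.48 without vitrified liver 3. Igf2r, a maternally expressed receptor that clears IGF2, was at 28.0, 34.5 and 28.3 CPM in the vitrified livers and 35.3, 44.7 and 34.7 CPM in the fresh livers. For Igf2r the log2 fold change was -0.30 (SE 0.18). In these 3 genes the groups did not overlap. Of the 15 tested members, 2 were higher and 2 lower without overlap, against 4.18% and 3.4% of all genes tested. Counts of total expression do not show from which parental copy the RNA came.

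Genes of DNA methylation and chromatin silencing had 10 of 22 members above 0 and a median of -0.047, with 0 members at an unadjusted p under 0.05. Mbd2, a reader of methylated DNA, was at 41.4, 45.9 and 48.04 CPM in the vitrified livers and 34.6, 36.0 and 34.5 CPM in the fresh livers. For Mbd2 the log2 fold change was 0.41 (SE 0.18), and it was 0.27 without vitrified liver 3; the groups did not overlap. Retinoid metabolism had 6 of 21 members above 0 and a median of -0.18, and all tested members apart from Retsat overlapped between the groups, with the plasma retinol carrier Rbp4 at 1527, 1582 and 1596 CPM in the vitrified livers and 1631, 1267 and 1165 CPM in the fresh livers.

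Cytochromes P450 of drug metabolism had 13 of 24 members above 0 and a median of 0.022. Cyp2a5, a coumarin hydroxylase, was at 749, 769 and 562 CPM in the vitrified livers and 278, 454 and 549.5 CPM in the fresh livers. For Cyp2a5 the log2 fold change was 0.73 (SE 0.27), with vitrified liver 3 just above fresh liver 3. Cyp2e1, the abundant ethanol-oxidising P450, was at 4131, 6405 and 4409 CPM in the vitrified livers and 6228, 4104 and 4578 CPM in the fresh livers, with group means of 4982 ± 1241 and 4969.9 ± 1115 CPM (mean ± SD, n = 3 each). Conjugating enzymes had 23 of 35 members above 0 and a median of 0.11. Mgst1, a microsomal glutathione transferase, was at 4109, 3649 and 3137 CPM in the vitrified livers and 2523, 2964 and 2545 CPM in the fresh livers. For Mgst1 the log2 fold change was 0.48 (SE 0.22), without overlap. Tpmt, which methylates thiopurine drugs, was at 185, 188 and 117 CPM in the vitrified livers and 110.1, 139 and 96.0 CPM in the fresh livers. For Tpmt the log2 fold change was 0.53 (SE 0.21), with overlap.

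Among iron genes, 9 of 19 lay above 0 and the median was -0.053. Hamp, the iron hormone hepcidin, was at 587, 493 and 409 CPM in the vitrified livers and 218, 83.3 and 538 CPM in the fresh livers. For Hamp the log2 fold change was 0.85 (SE 0.62), and it was 1.74 without fresh liver 3, which lay within the vitrified range. Slc39a14, a zinc and iron importer of hepatocytes, was at 179, 259.8 and 464 CPM in the vitrified livers and 211, 159 and 141 CPM in the fresh livers. For Slc39a14 the log2 fold change was 0.90 (SE 0.41), and it was 0.31 without vitrified liver 3. Complement and coagulation genes lay above 0 in 10 of 33 members with a median of -0.11, and 0 members had an unadjusted p under 0.05.

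Genes that differ between male and female mouse livers followed fresh liver 3. Of 17 female-biased genes listed, 10 were tested, and all 10 lay below 0 with a median of -6.001. Fresh liver 3 held the highest value of all 10, and the median was -0.15 without it. The filter on low counts can keep a scarce gene through the group where it is higher, so the count below 0 may partly follow from the filter. The log2 fold changes of A1bg and Cyp3a41a were -10.17 and -9.62 with all livers and -0.077 and -0.48 without fresh liver 3. Cyp17a1, a steroid hydroxylase on the same list, was at 0.859, 1.495 and 0.103 CPM in the vitrified livers and 2.41, 1.77 and 15.6 CPM in the fresh livers. For Cyp17a1 the log2 fold change was -3.03 (SE 1.11), and it was -1.37 without fresh liver 3. Male-biased genes lay above 0 in 12 of 17 members with a median of 0.26, which was -0.17 without fresh liver 3, the lowest library for 15 of the 17.

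The major urinary proteins, pheromone carriers that male liver secretes in bulk, varied between single livers by orders of magnitude. Mup10 was at 5.93, 26.6 and 13.4 CPM in the vitrified livers and 24196, 18.8 and 27.6 CPM in the fresh livers. For Mup10 the log2 fold change was -9.07 (SE 3.46), and it was -0.58 without fresh liver 1. Mup22 was at 23470.5, 14066 and 27671 CPM in the vitrified livers and 238, 20872 and 13628 CPM in the fresh livers, so fresh liver 1 was the highest library for Mup10 and the lowest for Mup22. Copies of this family share most of their sequence, so the value of each member is uncertain. Summed over the listed members, the family came to 168188, 64583 and 217567 CPM in the vitrified livers and 212820.0, 145175 and 29618 CPM in the fresh livers, and the groups overlapped.

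Hepatocyte zones, the regions of the lobule near the central or the portal vein, showed no common direction, with pericentral genes above 0 in 5 of 15 members (median -0.15) and periportal genes in 8 of 14 (median 0.11). Axin2 and Tbx3 were the pericentral members with an unadjusted p under 0.05 that were lower in vitrified livers. Axin2, a feedback target of Wnt, was at 2.22, 0.980 and 0.982 CPM in the vitrified livers and 4.43, 1.996 and 5.29 CPM in the fresh livers. For Axin2 the log2 fold change was -1.45 (SE 0.50). Tbx3, a pericentral transcription factor, was at 7.93, 7.01 and 1.14 CPM in the vitrified livers and 20.02, 8.81 and 22.5 CPM in the fresh livers. For Tbx3 the log2 fold change was -1.70 (SE 0.67). Glul, glutamine synthetase of the cells next to the central vein, was at 357, 413 and 534 CPM in the vitrified livers and 522, 566 and 727 CPM in the fresh livers. For Glul the log2 fold change was -0.42 (SE 0.27), and it was -0.26 without fresh liver 3 and -0.70 without vitrified liver 3. Pigr, the polymeric immunoglobulin receptor of the periportal list, was at 898, 1318 and 982 CPM in the vitrified livers and 850.4, 615 and 893 CPM in the fresh livers. For Pigr the log2 fold change was 0.47 (SE 0.24). Axin2 and Glul overlapped between the groups, and Tbx3 and Pigr did not.

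Hepatocyte markers had 7 of 13 members above 0 and a median of 0.015, and markers of the other liver cell types were followed in the same way. Cholangiocyte markers had 8 of 10 tested members above 0 with a median of 1.10, which was -0.067 without vitrified liver 3, the highest library for 8 of the 10. Krt18 and Krt8, keratins that hepatocytes hold as well, were at 138, 98.1 and 908 CPM and 154, 114 and 1152 CPM in the vitrified livers and at 85.1, 133 and 110.1 CPM and 114, 164 and 142 CPM in the fresh livers. Spp1, osteopontin, was at 81.9, 24.3 and 120.02 CPM in the vitrified livers and 20.4, 35.0 and 39.1 CPM in the fresh livers. For Spp1 the log2 fold change was 1.37 (SE 0.63), and it was 0.75 without vitrified liver 3.

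Sinusoidal endothelial markers had 8 of 18 members above 0 and a median of -0.050, Kupffer cell markers 2 of 16 and -0.23, and stellate cell markers 5 of 18 and -0.21. Without fresh liver 3 the median was 0.029 for Kupffer and -0.045 for stellate cell markers, and leaving out 1 library at a time gave -0.67 to 0.029 and -0.46 to -0.0062. Summed levels of the Kupffer cell list were 327, 725 and 307 CPM in the vitrified livers and 366, 467 and 709 CPM in the fresh livers. Vitrified liver 2 was highest for 15 of 18 endothelial, 9 of 16 Kupffer and 10 of 18 stellate markers, against 23.8% of all genes tested. Marco, a scavenger receptor of macrophages, was at 3.13, 6.81 and 4.86 CPM in the vitrified livers and 7.44, 13.97 and 6.64 CPM in the fresh livers. For Marco the log2 fold change was -0.88 (SE 0.37).

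Extracellular matrix and collagen genes lay below 0 in 22 of 25 tested members, with a median of -0.38. An unadjusted p under 0.05 was found for 5 members, all lower, and all vitrified livers were below all fresh livers for 4, against 3.4% of all genes tested. The median was -0.34 without fresh liver 3 and -0.23 without vitrified liver 1, the lowest library for 13 of the 25, and it reached -0.52 without fresh liver 1. Col1a1, a chain of fibrillar collagen, was at 2.83, 1.24 and 1.55 CPM in the vitrified livers and 2.84, 4.21 and 6.12 CPM in the fresh livers. For Col1a1 the log2 fold change was -1.18 (SE 0.44). Sparc, a collagen-binding matrix protein, was at 31.3, 36.8 and 27.7 CPM in the vitrified livers and 33.8, 57.0 and 73.5 CPM in the fresh livers. For Sparc the log2 fold change was -0.74 (SE 0.27), and it was -0.47 without fresh liver 3. Elastin (Eln) was at 0.505, 0.825 and 0.724 CPM in the vitrified livers and 0.985, 1.94 and 2.02 CPM in the fresh livers. For Eln the log2 fold change was -1.22 (SE 0.44). Fibronectin (Fn1), which hepatocytes secrete and which was the most abundant member in CPM, was at 715, 1225 and 903 CPM in the vitrified livers and 904, 1654 and 1249.8 CPM in the fresh livers, with overlap.

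Neutrophil markers were above 0 in all 6 tested members, with a median of 1.42 that was 2.39 without fresh liver 3, and the other 6 listed markers were not tested. The filter on low counts can keep a scarce marker through the group where it is higher. The count of neutrophil markers above 0 may therefore partly follow from the filter. S100a9, an abundant calcium-binding protein of neutrophils, was at 1.11, 12.2 and 5.12 CPM in the vitrified livers and 0.875, 1.61 and 1.56 CPM in the fresh livers. For S100a9 the log2 fold change was 2.19 (SE 0.76). S100a8, its partner, was at 0.556, 6.50 and 2.64 CPM in the vitrified livers and 0.109, 0.333 and 0.934 CPM in the fresh livers. For S100a8 the log2 fold change was 2.78 (SE 0.97). Vitrified livers 2 and 3 were high, and vitrified liver 1 lay among the fresh livers. Plasma cell transcripts rested on vitrified liver 2, with the immunoglobulin chain Igkc at 22.8, 120.5 and 8.17 CPM in the vitrified livers and 7.39, 11.3 and 11.7 CPM in the fresh livers, and Jchain at 13.1, 85.2 and 5.07 CPM in the vitrified livers and 5.74, 6.54 and 7.58 CPM in the fresh livers. T and NK cell markers had 2 of 6 tested members above 0, and B and plasma cell markers 6 of 9. Erythroid markers had 5 of 6 above 0 with a median of 0.35, which was 0.12 without vitrified liver 3.

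Markers of kidney tubule and podocyte were present at a low level in the livers. Of the 13 listed, 10 were tested, and all 10 lay below 0 with a median of -0.40. As for the neutrophil markers, this count may partly follow from the filter on low counts. All vitrified livers were below all fresh livers for 6, against 3.4% of all genes tested. Vitrified liver 3 was the lowest library for 6 of the 10, against 39.1% of all genes tested. Kap, the kidney androgen-regulated protein, was at 38.0, 44.1 and 37.6 CPM in the vitrified livers and 53.5, 52.7 and 54.0 CPM in the fresh livers. For Kap the log2 fold change was -0.38 (SE 0.16), while the kidneys of the series held it at between 4849 and 31456 CPM. The summed level of the 13 listed markers was 59.7, 66.9 and 55.1 CPM in the vitrified livers and 80.5, 82.2 and 78.8 CPM in the fresh livers, and the part of stray kidney RNA in other liver results was not tested. Adipocyte and mesothelial markers had 1 of 3 tested members above 0 and a median of -0.93. The mesothelial marker Upk3b was at 0.657, 0.361 and 0.569 CPM in the vitrified livers and 0.930, 1.55 and 1.87 CPM in the fresh livers. For Upk3b the log2 fold change was -1.39 (SE 0.47). Of the pancreas and gut list, 3 of 11 markers were tested, and Fabp2, a fatty acid binding protein of the intestine, was at 73.7, 92.2 and 58.4 CPM in the vitrified livers and 35.7, 34.4 and 68.5 CPM in the fresh livers. For Fabp2 the log2 fold change was 0.71 (SE 0.29), and it was 1.11 without fresh liver 3.

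Of 21 cell cycle genes listed, 16 were tested, and 13 of the 16 lay below 0, a count that may partly follow from the filter on low counts. The median was -0.67, and it was 0.24 without fresh liver 3, the highest library for 15 of the 16. Mki67, a marker of dividing cells, was at 3.18, 4.02 and 3.05 CPM in the vitrified livers and 1.42, 2.38 and 25.8 CPM in the fresh livers. For Mki67 the log2 fold change was -1.50 (SE 1.10), and it turned to 0.88 without fresh liver 3. Kif20a, a kinesin of cell division, was at 0.486, 0.722 and 0.104 CPM in the vitrified livers and 0.669, 1.08 and 5.02 CPM in the fresh livers. For Kif20a the log2 fold change was -2.33 (SE 0.90), and it was -0.93 without fresh liver 3. Interferon-response genes had 9 of 29 members above 0 and a median of -0.19, which was -0.0027 without fresh liver 3, the highest library for 17 of the 29. Ifi44, an interferon-induced gene, was at 4.75, 2.78 and 3.88 CPM in the vitrified livers and 3.45, 9.42 and 12.9 CPM in the fresh livers. For Ifi44 the log2 fold change was -1.11 (SE 0.48), and it was -0.68 without fresh liver 3. Antigen presentation had 14 of 20 members above 0 and a median of 0.25, which was 0.00099 without vitrified liver 1. The non-classical class I gene H2-T23 was at 27.1, 32.8 and 66.9 CPM in the vitrified livers and 56.5, 114 and 146 CPM in the fresh livers. For H2-T23 the log2 fold change was -1.22 (SE 0.50), and it was -1.86 without vitrified liver 3. Genes of this locus differ between the haplotypes of outbred mice, and the labels give no haplotype.

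Cytosolic ribosomal proteins lay above 0 in 32 of 33 tested members with a median of 0.29, and for 10 of them all vitrified livers were above all fresh livers, against 4.18% of all genes tested. Fresh liver 1 held the lowest value of 27 of the 33 genes and vitrified liver 2 the highest of 25, and the median was 0.16 without fresh liver 1. Rps29 was at 124, 107 and 91.1 CPM in the vitrified livers and 57.9, 46.8 and 82.8 CPM in the fresh livers. For Rps29 the log2 fold change was 0.81 (SE 0.25). Rps19 was at 73.9, 72.3 and 66.0 CPM in the vitrified livers and 41.4, 49.2 and 61.7 CPM in the fresh livers. For Rps19 the log2 fold change was 0.52 (SE 0.20). Rps27 was at 90.9, 106 and 75.8 CPM in the vitrified livers and 58.3, 59.2 and 76.5 CPM in the fresh livers. For Rps27 the log2 fold change was 0.52 (SE 0.18), with fresh liver 3 just above vitrified liver 3. Ribosomal protein genes have processed copies elsewhere in the genome, so their estimated counts are uncertain.

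Around Tpm3, the tropomyosin and actin list had 15 of 20 members above 0 and a median of 0.22, which was 0.085 without vitrified liver 3. Cald1, caldesmon, which binds actin and tropomyosin, was at 127, 169 and 162 CPM in the vitrified livers and 191, 224 and 223 CPM in the fresh livers. For Cald1 the log2 fold change was -0.43 (SE 0.20), without overlap. Of the 20 members, 3 were higher and 2 lower without overlap, against 4.18% and 3.4% of all genes tested. Around Pkd2, the polycystin and primary cilium list had 5 of 15 members above 0 and a median of -0.18, which was -0.071 without vitrified liver 3. Its other member with an unadjusted p under 0.05 was Lrp5, a Wnt coreceptor, at 20.1, 14.95 and 13.03 CPM in the vitrified livers and 25.0, 37.4 and 24.7 CPM in the fresh livers. For Lrp5 the log2 fold change was -0.82 (SE 0.24), without overlap. On the polycystin and primary cilium list, 1 member was higher and 2 were lower without overlap. The processing enzymes of polycystins, Ganab at 145, 161 and 152 CPM and Prkcsh at 57.3, 57.7 and 68.9 CPM in the vitrified livers, were at 176, 183 and 144 and 69.0, 82.1 and 65.4 CPM in the fresh livers and overlapped.

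The 23 genes described first were also looked up in the 4 vitrified and 3 fresh kidneys, which share no library with the livers. The labels do not say whether livers and kidneys came from the same mice, and libraries with the same number shared traits. The summed Y-linked level was 0.778 CPM in fresh liver 3 and 1.25 CPM in fresh kidney 3, and Hspa1a was highest in vitrified library 3 of both organs, at 57.3 CPM in liver and 438 CPM in kidney. The kidneys are therefore not shown to be independent of the livers. Of the 22 of these genes that could be tested in kidney, 17 had the same direction there, and of 11997 genes tested in both organs 63.9% did. The kidney groups did not overlap, in the same direction as in liver, for 3 of the 22, and in the other direction for 0, while over all 14018 kidney genes tested 2.87% did not overlap in either direction. No gene of the series passed an adjusted p of 0.05 for a difference between the organs (0 of 14441 in edgeR, 0%, with 275 genes or 1.9% at an unadjusted p under 0.05).

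The 3 genes were Ero1lb, Prxl2b and Lbp. Ero1lb was at 17.5, 7.71, 7.86 and 8.83 CPM in the vitrified kidneys and 22.95, 31.2 and 30.2 CPM in the fresh kidneys. For Ero1lb the log2 fold change in kidney was -1.41 (SE 0.30). Prxl2b was at 4.96, 7.78, 2.57 and 7.70 CPM in the vitrified kidneys and 27.4, 19.1 and 28.7 CPM in the fresh kidneys. For Prxl2b the log2 fold change in kidney was -2.12 (SE 0.34). Lbp was at 3.36, 2.86, 2.16 and 4.98 CPM in the vitrified kidneys and 7.57, 20.4 and 24.5 CPM in the fresh kidneys. For Lbp the log2 fold change in kidney was -2.37 (SE 0.37). The adjusted p of Prxl2b and Lbp was 0.427 and that of Ero1lb 0.999 by edgeR. That every vitrified library lay on the same side of every fresh library in both organs is how these 3 genes were picked. It is a description and no finding.

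Tpm3 was lower in 3 of the 4 vitrified kidneys, at 23.9, 17.1, 20.8 and 88.5 CPM in the vitrified kidneys and 62.9, 122 and 129.99 CPM in the fresh kidneys, with a log2 fold change of -1.54 (SE 0.51), and vitrified kidney 4 lay within the fresh range. The division between Tpm3 and Tpm3-rs7 was not looked at in kidney, so these values are uncertain as in liver. The kidneys differ from one another too, since the summed Y-linked level was 0.170 CPM in vitrified kidney 4 and 1.25 CPM in fresh kidney 3. Ntrk2, Micu3, Pkd2 and Retsat had log2 fold changes near 0 in kidney, while Casc4 had -0.59 (SE 0.35) and Phf11c 0.42 (SE 0.46). Ntrk2 was at 0.751, 0.995, 0.873 and 2.15 CPM in the vitrified kidneys and 0.656, 1.35 and 1.63 CPM in the fresh kidneys, and its difference between organs, liver minus kidney, was 2.69 on the log2 scale. Micu3 was at 18.8, 17.9, 18.3 and 19.5 CPM in the vitrified kidneys and 20.6, 17.9 and 19.8 CPM in the fresh kidneys, with a difference between organs of 1.18. For Pkd2 this difference was 1.56 and for Retsat -1.19. None of these differences between organs passed the adjusted threshold.

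**Figure D4:**
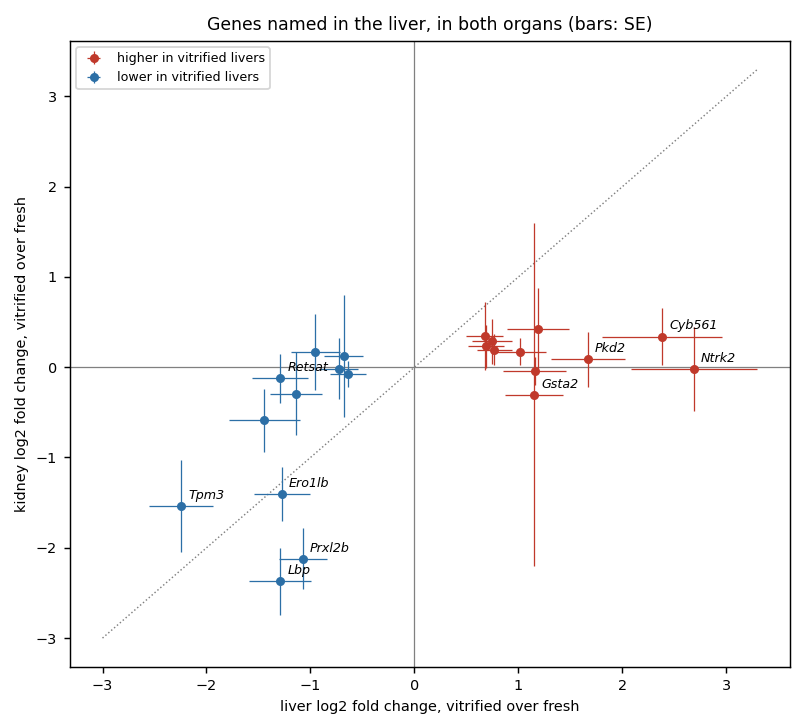
Kidney against liver log2 fold change (vitrified over fresh) with standard errors as bars, for the 22 of the 23 genes that could be tested in kidney, red for genes higher and blue for genes lower in vitrified livers; the dotted line marks equal change. Ero1lb, Prxl2b and Lbp lie far from 0 in both organs, and Ntrk2, Pkd2 and Retsat lie near 0 in kidney.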

How the data were processed

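The estimated counts per gene were deposited by the authors, and the submitters' processing notes name Bowtie2 2.2.8, HISAT2 2.4, StringTie 1.3.1, DESeq2 and GRCm39, with no role or order. FPKM values, also made by the authors, stand beside them in the deposited table and served only as an alternative.

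Counts were rounded and tested in R 4.3.3 with edgeR 4.0.16 (TMM scaling, default filter on low counts, robust quasi-likelihood fit, Benjamini-Hochberg adjustment over all genes tested). CPM came from unrounded estimated counts and library totals, which ranged from 18037816 to 19795826 in livers. DESeq2 1.42.0, limma 3.58.1, other filters and scalings, the replicate block and leaving out libraries were alternatives.

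Named genes are the 12 with the smallest p in each direction among non-overlapping genes with a mean of at least 1 CPM, predicted genes skipped, and genes DESeq2 called. List members the rule gives but the text does not describe are covered by their list's counts, and a few genes are not reported here. The members and lists were chosen with earlier results of these data known. The labels do not say that the numbers pair mice, so same-numbered livers were not paired. Correlations of their deviations from the group means were 0.073, -0.18 and -0.057. Livers with different numbers gave -0.12 to 0.20. With 3 libraries per group, these correlations cannot decide whether same-numbered livers share a litter or day. Shared 50-base words were counted in GENCODE transcripts of another build, GRCm38. Figures were drawn with matplotlib 3.10.9.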

Additional observations from a re-analysis of the deposited data

Results flagged for a closer look

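The 23 genes described first were looked up in the 4 vitrified kidneys for a library with a wide gap to the other 3. A gap was found for 6 of the 23, where chance flags about 1 in 20 groups of 4 if values spread normally. In Gsta2, Tpm3, Lgals3bp and Klhl33 it was vitrified kidney 4, whose summed Y-linked level was 0.170 CPM. These flags share a library and are not separate. Gsta2 was at 453 CPM in vitrified kidney 4 and between 7.13 and 13.03 CPM in the other 3, and fresh kidney 3 also held it high, at 425 CPM. Tpm3 was at 88.5 CPM in vitrified kidney 4 and between 17.1 and 23.9 CPM in the other 3. Lgals3bp was at 188 CPM in vitrified kidney 4 and between 22.7 and 48.7 CPM in the other 3. Rbis was at 36.0 CPM in vitrified kidney 2 and between 24.9 and 26.8 CPM in the other 3. Ero1lb was at 17.5 CPM in vitrified kidney 1 and between 7.71 and 8.83 CPM in the other 3. Klhl33, which was not tested in kidney, was at 0.566 CPM in vitrified kidney 4 and between 0.0513 and 0.124 CPM in the other 3. The liver groups hold 3 libraries each and were too small for this look.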

How the results depend on the processing

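No setting other than DESeq2, which called 10 genes, and leaving out fresh replicate 1, which called 1, made a call in liver, so leaving out 1 library gave 0 to 1 calls and 229 to 732 genes with an unadjusted p under 0.05. A fit of all 13 libraries gave 796 such genes. The replicate block gave 0 calls and 320 such genes, and no organ difference was called under it either. Leaving out 1 library gave 1556 to 2823 genes without overlap, against 935 with all livers. A group with fewer libraries overlaps less easily, so a rise was to be foreseen and says little about any library. TMM-scaled CPM, an alternative chosen after seeing the data, gave 1041. Of 1725 gene values 1707 kept their direction and side of the threshold, and of 864 list medians 807 moved by less than the spread between replicates. Almost no value passed the threshold in any setting, so staying on the same side says little. That spread includes the livers that stand apart. It was 0.68 for cholesterol genes, so their move from 0.49 to -0.13 without vitrified liver 3 counts as less than the spread. Values that reversed belonged to 4 genes: leaving out 1 library at a time, Igfbp1 ranged over -0.30 to 5.87, Hspa5 over -0.039 to 1.45 and Mki67 over -2.01 to 0.88. Without fresh 3 and vitrified 3 together, Hspa5 was -0.096, A1bg 0.040 and Mki67 0.87, and when the summed Y-linked level entered the fit A1bg was 0.24 and Mki67 0.98.

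Without fresh 3 and vitrified 3 together, list medians moved to 0.0018 for fatty acid oxidation, 0.021 for imprinted genes, -0.34 for endoplasmic reticulum folding, -0.074 for heat shock, 0.035 for immediate early genes, -0.24 for acute phase, 0.15 for female-biased genes, 0.23 for hepatocyte, -0.084 for cholangiocyte, 0.48 for T and NK cell, -0.041 for erythroid and -0.53 for kidney markers, 0.067 for cell cycle, 0.54 for antigen presentation and 0.13 for tropomyosins and actin. With that Y-linked term they were -0.0099 for fatty acid oxidation, 0.13 for female-biased genes, 0.17 for hepatocyte, 2.38 for neutrophil and -0.62 for adipocyte markers, 0.30 for cell cycle and 0.37 for tropomyosins. On log2(FPKM + 1) they were 0.11 for imprinted genes, -2.12 for female-biased genes, 0.35 for cholangiocyte, 0.48 for neutrophil, -0.17 for kidney and -0.23 for adipocyte markers. Female-biased genes were at -2.84 with limma-voom and -1.93 with the replicate block, and with a mean of at least 1 CPM imprinted genes were at 0.14 and adipocyte markers at 0.087.

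Leaving out 1 library at a time, medians ranged over -0.083 to 0.064 for DNA methylation, -0.26 to 0.22 for endoplasmic reticulum folding, -0.47 to 0.20 for T and NK cell markers, -0.25 to 0.71 for acute phase, -1.18 to -0.63 for adipocyte markers, -0.13 to 0.11 for apolipoproteins, -1.02 to 0.24 for cell cycle, -0.067 to 1.45 for cholangiocyte, 0.12 to 0.55 for erythroid and -0.034 to 0.62 for pancreas and gut markers, -6.92 to -0.15 for female-biased genes, -0.12 to 1.17 for heat shock, 0.14 to 1.68 for immediate early genes, 0.034 to 0.20 for imprinted genes, 0.97 to 2.39 for neutrophil markers and 0.085 to 0.36 for tropomyosins. For 24 of the 48 lists the median was below 0 without 1 library and above 0 without another. The cause of these shifts was not tested beyond leaving out the libraries named. At this depth 5558 of 22298 genes had no count in any liver.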
